A study of Mus musculus with 12 samples.

Results

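The genes described here are 8 proteases that mast cells and basophils keep in their secretory granules: Cma1, Mcpt4, Mcpt8, Gzmb, Tpsb2, Tpsab1, Prss34 and Cpa3. They were taken by name from the 46103 genes that the expression files list, after numbered copies of a gene were summed, and none of the 8 had such a copy. The genes were picked because of the levels that these libraries show, so their levels and their differences between groups are given as descriptions, without tests. Of the 8 genes, 7 were above 0 in at least 1 of the 12 libraries, and Tpsab1 was listed at 0 in every library. Only 5 of them, Cma1, Mcpt8, Gzmb, Prss34 and Cpa3, reached 1 RPKM in at least 3 libraries and entered the fit across all genes; Mcpt4 and Tpsb2 reached it in 2 libraries each.

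RNA was sequenced from 12 libraries of 100 sorted cells each, taken from bone marrow and spleen of C57BL/6 mice with a chronic myeloid leukemia (CML)-like disease. To make the disease, bone marrow cells of 5-fluorouracil-treated G0M mice were infected with a retrovirus carrying human BCR-ABL1 and GFP and were given, with unmodified helper marrow, to lethally irradiated wild-type mice. In G0M mice, Vav1-Cre, which is active in blood cells, turns on a Rosa26 allele that encodes mVenus fused to p27K-, a marker of quiescent cells. All groups were BCR-ABL1+ KSL cells (lineage-negative, Sca-1-positive and c-Kit-positive) that carried CD27. The 3 DP libraries held G0M+CD27+ cells and the 3 SP libraries G0M-CD27+ cells of vehicle-treated mice, and the 3 IMDP and 3 IMSP libraries held the same populations of mice given imatinib, a BCR-ABL1 kinase inhibitor, once a day by oral gavage. The model is a retroviral one in irradiated hosts, cells of bone marrow and spleen are named together, and nothing says whether the libraries of a group came from separate mice, so the errors below measure the spread between libraries, which may be technical. The imatinib libraries carry the lower library numbers throughout, and treatment and library order cannot be told apart.

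The libraries rested on 11.4 to 20.6 M reads, of which 25.2% to 36.1% lay on listed genes, and RPKM counts reads per kilobase of transcript and per M reads. The sort markers were present in all libraries: Kit ranged from 16.8 to 39.8 RPKM, Cd27 from 12.2 to 21.4 RPKM and Ly6a, which encodes Sca-1, from 3.12 to 20.8 RPKM. Mki67, a gene of dividing cells, averaged 54.2 ± 3.42 RPKM (SD, n = 3) in the SP and 61.1 ± 8.39 RPKM in the IMSP libraries, but 14.7 ± 5.70 RPKM in the DP and 8.16 ± 1.67 RPKM in the IMDP libraries.

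Mast cells and basophils store serine proteases and a carboxypeptidase, bound to the proteoglycan serglycin, and release them when the IgE receptor is engaged. Many, though not all, chymases cut after aromatic residues, tryptases cut after basic residues, and carboxypeptidase A3 trims the C termini of peptides. Connective tissue mast cells of the mouse are known for the chymases Cma1 (mMCP-5) and Mcpt4 (mMCP-4), the tryptases Tpsb2 (mMCP-6) and Tpsab1 (mMCP-7), and Cpa3, whereas basophils are known for Mcpt8 (mMCP-8) and Prss34 (mMCP-11). Cpa3 RNA is also known in early progenitors of the blood system, and granzyme B, the product of Gzmb, is a protease of cytotoxic T and NK cells that mast cells can make as well. In the bulk RNA of 100 cells, more cells of a type and more RNA per cell cannot be told apart.

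In GRCm38 with GENCODE M21 the genes lie in 3 places. Cma1 (chr14:55941451-55944675), Mcpt4 (chr14:56059629-56062313), Mcpt8 (chr14:56082166-56085273) and Gzmb (chr14:56258838-56262260), all on the minus strand, mark out a stretch of 321 kb that holds 15 protein-coding genes, all of them granule proteases of one family. Prss34 (chr17:25298394-25300165, plus strand), Tpsab1 (chr17:25343245-25345562, minus strand) and Tpsb2 (chr17:25366305-25369098, plus strand) share a stretch of 70.7 kb with 2 other genes. Cpa3 (chr3:20215620-20242181, minus strand) stands alone. The microRNA genes Mir6949 and Mir7007 lie within Mcpt8 and Cpa3 on the same strand. Of the 50-base stretches of their transcripts, 5.38% were shared with another gene for Cma1 (Gm48934) and 5.48% for Mcpt4 (Cma2), and none for the other 6 genes. How the authors' counting treats shared reads is not stated, and Cma2 was at 0 in all libraries.

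The 250 bases before the RefSeq start (GRCm38.p6) are shown for Cma1, Prss34 and Cpa3, which stood out in DP and IMDP libraries to different degrees and hold a match to GATAA, the core read by GATA factors, and for Gzmb, which holds none. Letters run 5′ to 3′ on the strand of the gene, and capitals mark GATAA or its reverse TTATC.
Cma1, chr14:55944676-55944925, minus strand: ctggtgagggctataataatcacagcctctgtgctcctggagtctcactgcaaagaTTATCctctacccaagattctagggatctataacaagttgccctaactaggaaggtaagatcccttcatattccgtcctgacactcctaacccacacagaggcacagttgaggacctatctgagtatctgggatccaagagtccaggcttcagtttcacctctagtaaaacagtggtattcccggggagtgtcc
Prss34, chr17:25298144-25298393, plus strand: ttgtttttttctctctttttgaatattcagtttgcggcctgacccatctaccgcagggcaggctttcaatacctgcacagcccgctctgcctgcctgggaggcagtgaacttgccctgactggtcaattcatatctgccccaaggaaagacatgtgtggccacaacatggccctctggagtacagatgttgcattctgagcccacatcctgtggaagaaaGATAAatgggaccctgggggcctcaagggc
Cpa3, chr3:20242182-20242431, minus strand: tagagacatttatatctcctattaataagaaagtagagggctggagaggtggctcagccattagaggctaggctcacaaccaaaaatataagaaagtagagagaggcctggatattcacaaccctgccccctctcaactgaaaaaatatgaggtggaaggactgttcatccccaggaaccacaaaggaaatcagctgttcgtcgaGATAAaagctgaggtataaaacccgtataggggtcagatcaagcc
Gzmb, chr14:56262335-56262584, minus strand: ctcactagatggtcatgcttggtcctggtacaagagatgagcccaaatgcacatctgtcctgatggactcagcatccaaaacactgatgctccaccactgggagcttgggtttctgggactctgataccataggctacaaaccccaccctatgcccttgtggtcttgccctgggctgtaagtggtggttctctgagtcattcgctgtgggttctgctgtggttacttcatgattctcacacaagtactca
A match begins 194 bases before the start of Cma1, 30 bases before that of Prss34 and 45 bases before that of Cpa3, and another lies 102 bases before that of Mcpt4, whose promoter is not printed. Mcpt8, also not printed, holds no match, although all its DP libraries lay above its SP libraries. Of the 6 genes with an entry (all but Tpsb2 and Tpsab1), 4 held GATAA or TTATC, a motif found in 22.6% of the 32851 promoters of the same length. TGTGGT or ACCACA, read by RUNX factors, was in 4 of 6 and in 14.0% of all promoters. AGGAAG or CTTCCT, read by ETS factors, was in 2 of 6 (29.5% of all), the E-box form CACATG or CATGTG in 1 of 6 (12.3%), and TTCNNNGAA, read by STAT factors and equal to its own reverse, in 0 of 6 (7.02%). Matches of different motifs may overlap, and a match is a description of these letters, not a bound site.

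Among vehicle-treated mice, DP libraries held more protease RNA than SP libraries. The summed level of the 8 genes was 339, 160 and 73.5 RPKM in DP1, DP2 and DP3 and 13.0, 19.8 and 44.1 RPKM in SP1, SP2 and SP3. Under imatinib the sums were 178, 31.1 and 19.8 RPKM in IMDP1, IMDP2 and IMDP3 and 24.3, 6.44 and 11.5 RPKM in IMSP1, IMSP2 and IMSP3. IMDP1 stood between DP1 and DP2, while IMDP3 lay below IMSP1. Per M reads on listed genes, the 8 genes took 1365 reads in DP1, 755 in IMDP1 and 104 in IMDP3, and from 24.5 to 196 in the SP and IMSP libraries.

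**Figure D1:**
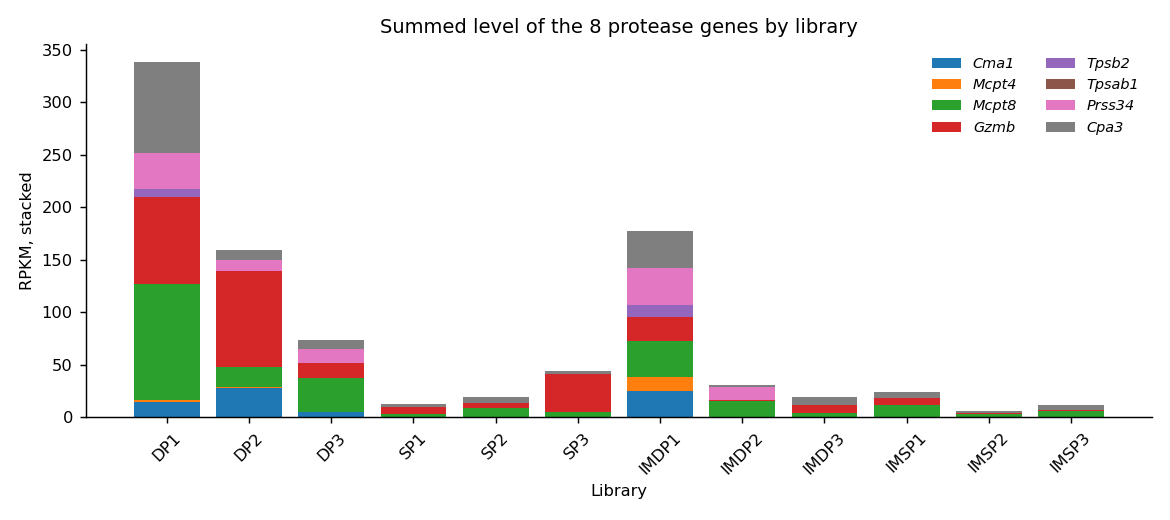
Summed RPKM of the 8 protease genes in each of the 12 libraries (linear axis from 0), stacked by gene. DP1 (339 RPKM), IMDP1 (178 RPKM) and DP2 (160 RPKM) hold the tallest bars, and the SP and IMSP libraries lie between 6.44 and 44.1 RPKM.

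Cma1, the chymase mMCP-5, was read in no G0M- library. Its level was 14.3, 28.5 and 5.46 RPKM in DP1 to DP3, resting on 244, 486 and 88 reads, and it was 0 in all 3 SP and all 3 IMSP libraries, where 3 reads would have given 0.134 to 0.242 RPKM. In IMDP libraries it was 25.6 RPKM (361 reads) in IMDP1, 0.25 RPKM (4 reads) in IMDP2 and 0 in IMDP3. The DP mean of 16.1 ± 11.6 RPKM (SD, n = 3) was thus at least 96.4-fold higher than SP, taking 3 reads per SP library as the floor, and no DP library overlapped an SP library. The IMDP mean of 8.63 ± 14.7 RPKM came almost wholly from IMDP1, and the fitted log2 difference from IMSP, 3.27 with all libraries, was 0.90 without it and 4.90 without IMDP3.

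Prss34, a tryptase of basophils, had the same split with a wider reach among IMDP libraries. DP1 to DP3 held 34.1, 9.99 and 13.4 RPKM (680, 199 and 253 reads). SP1 and SP3 were at 0 and SP2 held 0.14 RPKM from 3 reads. IMDP1 and IMDP2 held 35.5 and 13.1 RPKM, as high as the DP libraries, whereas IMDP3 and all 3 IMSP libraries were at 0, with a floor of at most 0.207 RPKM in any library at 0. On the log2(RPKM + 0.1) scale the fitted difference was 6.97 (SE 1.59) in DP against SP and 5.17 (SE 1.59) in IMDP against IMSP, values that depend on the added 0.1 because libraries at 0 enter them. The second was 7.76 without IMDP3.

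Mcpt8, the basophil protease mMCP-8, was read in every library, so its difference is one of level rather than of presence. It reached 110, 19.9 and 31.8 RPKM in DP1 to DP3 against 3.37, 8.73 and 4.88 RPKM in SP1 to SP3. The DP mean of 53.8 ± 48.9 RPKM was 9.51 times the SP mean of 5.66 ± 2.77 RPKM (SD, n = 3 each), and the groups did not overlap. That ratio leans on DP1. With 1 library left out the fitted log2 difference in this contrast ran from 2.24 to 3.47. In IMDP1 to IMDP3 the level was 34.1, 15.3 and 4.14 RPKM and in IMSP1 to IMSP3 it was 11.6, 3.01 and 5.72 RPKM. Here IMDP3 lay below 2 of the IMSP libraries. The fitted log2 difference was 2.95 (SE 0.78) in DP against SP and 1.13 (SE 0.78) in IMDP against IMSP. The latter was 0.44 without IMDP1, 0.66 without IMSP2 and 1.94 without IMDP3.

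Cpa3, the mast cell carboxypeptidase, was likewise above 2 RPKM in all libraries but IMDP2. DP1 held 86.9 RPKM, far above DP2 with 10.1 RPKM and DP3 with 8.17 RPKM. The SP libraries held 2.79, 5.57 and 2.66 RPKM, so the groups did not overlap, with a fitted log2 difference of 2.45 (SE 1.01), which was 1.37 without DP1. IMDP1, IMDP2 and IMDP3 held 35.4, 1.72 and 8.25 RPKM, and IMSP1 to IMSP3 held 5.61, 2.26 and 4.76 RPKM. IMDP2 had the lowest Cpa3 level of all 12 libraries while its Mcpt8 and Prss34 stood near the DP levels. Under imatinib the fitted difference was 1.02 (SE 1.01). It was -0.045 without IMDP1, 0.63 without IMSP2 and 2.10 without IMDP2.

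Gzmb, granzyme B, did not follow the G0 marker as closely. DP1 and DP2 held 83.0 and 91.3 RPKM and DP3 14.6 RPKM, while SP1 to SP3 held 6.86, 5.32 and 36.6 RPKM, so that SP3 stood above DP3. IMDP1 to IMDP3 held 22.5, 0.76 and 7.41 RPKM and IMSP1 to IMSP3 held 7.06, 1.18 and 0.99 RPKM. The fitted log2 difference was 2.11 (SE 1.19) in DP against SP and 1.29 (SE 1.19) in IMDP against IMSP. Without IMDP1 the latter was 0.24, while it was 2.60 without IMDP2, 2.15 without IMSP1 and 0.80 without IMSP3. Gzmb was the highest of the 8 genes in DP2, SP1 and SP3, where it made up 57.1%, 52.7% and 82.9% of their summed RPKM.

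The other mast cell chymase and the tryptases were read in few libraries. Mcpt4 held 2.52 RPKM (39 reads) in DP1, 0.13 RPKM (2 reads) in DP2 and 13.2 RPKM (169 reads) in IMDP1, and was 0 in the remaining libraries, where 3 reads amount to 0.147 to 0.267 RPKM. Tpsb2, the tryptase mMCP-6, held 8.13 RPKM (217 reads) in DP1 and 11.1 RPKM (245 reads) in IMDP1 and was 0 in the remaining libraries, with floors of 0.0855 to 0.155 RPKM. Tpsab1, the tryptase mMCP-7, was listed at 0 in every library. C57BL/6 mice are known not to make mMCP-7, and the part of that in this value was not tested. Libraries DP1 and IMDP1 alone thus held Cma1, Mcpt4 and Tpsb2 together.

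**Figure D2:**
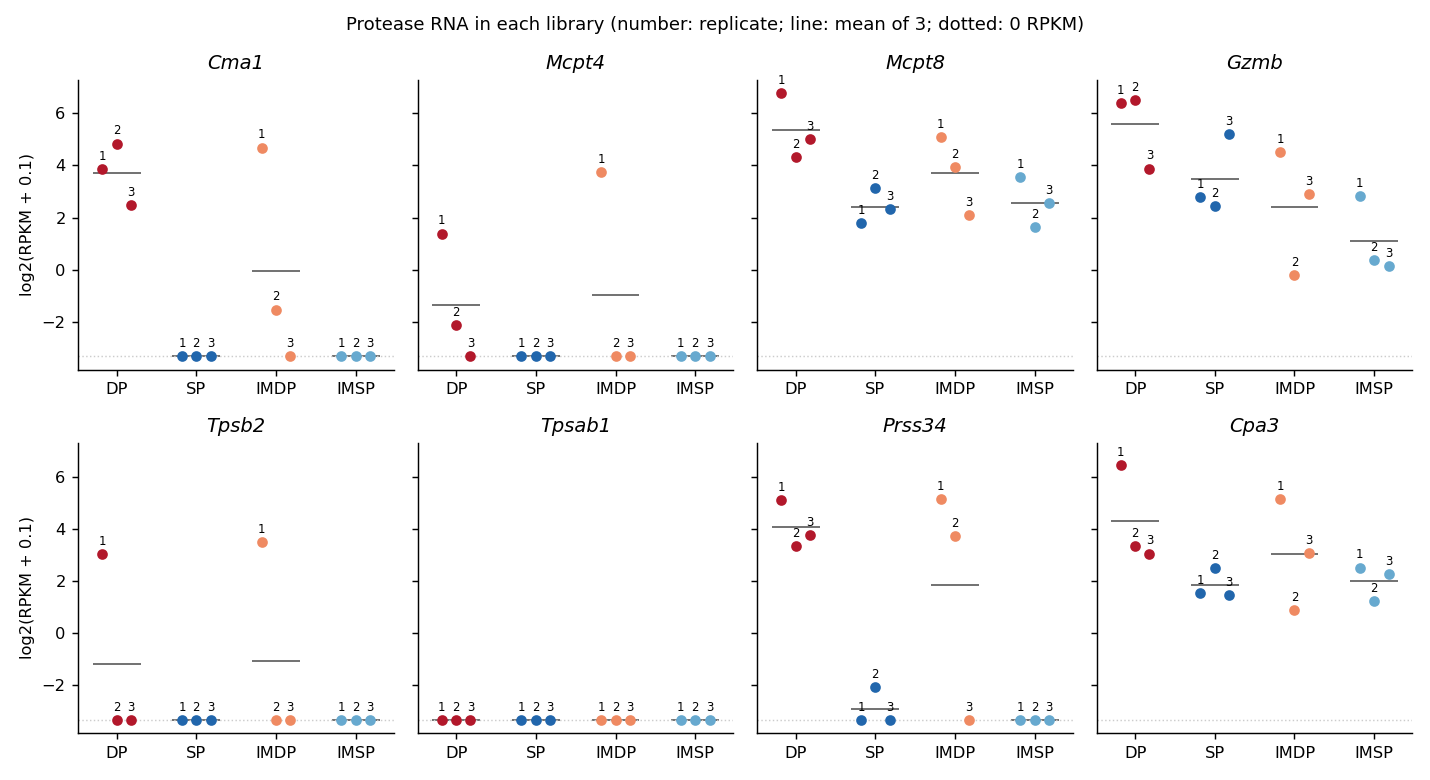
Level of each protease gene in each library, as log2(RPKM + 0.1), by group; numbers are replicates, lines are means of the 3 log values and the dotted line marks 0 RPKM. Cma1 and Prss34 are at or near the dotted line in all SP and IMSP libraries, and Mcpt4 and Tpsb2 exceed 1 RPKM in DP1 and IMDP1 only.

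The makeup of the protease RNA also differed between libraries. The basophil proteases Mcpt8 and Prss34 made up 42.5% of the summed RPKM in DP1, 18.7% in DP2, 61.6% in DP3, 39.2% in IMDP1, 91.2% in IMDP2 and 20.9% in IMDP3. The chymases and tryptases Cma1, Mcpt4 and Tpsb2 made up 7.36%, 17.9% and 7.42% in DP1 to DP3, 28.2% in IMDP1, 0.79% in IMDP2 and 0% in IMDP3. IMDP2 therefore held basophil proteases with almost no chymase, DP2 held the highest Cma1 level of all libraries (28.5 RPKM) with moderate Mcpt8 and Prss34, and IMDP1 held all 7 detected genes at between 11.1 and 35.5 RPKM. In the SP and IMSP libraries the sum came from Mcpt8, Gzmb and Cpa3, apart from the 3 Prss34 reads of SP2.

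DP1 and IMDP1 were set beside IMDP3, the G0M+ library with the least protease RNA. IMDP3 had more reads (16.9 M) than DP1 (15.7 M) or IMDP1 (12.9 M). On listed genes it had 4.47 M reads, fewer than DP1 (5.13 M) and more than IMDP1 (3.91 M). Mcpt8 was 26.5 times as high in DP1 as in IMDP3 and 8.25 times as high in IMDP1, Cpa3 10.5 and 4.30 times, and Gzmb 11.2 and 3.04 times. Against 3 reads in IMDP3, where it was 0, Cma1 was at least 88.0-fold higher in DP1 and at least 158-fold higher in IMDP1, Prss34 at least 245-fold and 255-fold, Tpsb2 at least 78.2-fold and 107-fold, and Mcpt4 at least 14.1-fold and 73.9-fold. These ratios compare libraries and have no replicate error. Between DP1 and IMDP1 the order of the genes turned: the DP1 level was 3.22 times that of IMDP1 for Mcpt8, 3.68 times for Gzmb and 2.45 times for Cpa3, but 0.56 times for Cma1, 0.73 times for Tpsb2 and 0.19 times for Mcpt4, with Prss34 nearly equal at 0.96 times.

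Over the groups, 4 of the 8 genes (Cma1, Mcpt8, Prss34 and Cpa3) had all 3 DP libraries above all 3 SP libraries, and 9.68% of the 10072 genes tested did so too, while 12.7% lay lower without overlap. These genes were picked by this contrast, so nothing is read from that count. Without both DP1 and IMDP1 the count was still 4. In IMDP against IMSP 0 of 8 were higher without overlap, beside 6.21% of all genes that were higher and 32.8% that were lower without overlap. Leaving out IMDP3 gave 3 and leaving out IMDP2 gave 2. The share of all genes was not taken with libraries left out, so nothing is read from those counts either. All 5 genes in the fit had a positive log2 difference in both population contrasts, from 2.11 to 7.04 in DP against SP and from 1.02 to 5.17 in IMDP against IMSP. The medians were 2.95 and 1.29, where all genes had medians of -0.02 and -0.25. Cma1 and Prss34 entered the fit through G0M+ libraries alone, and all 5 genes were picked from these values. Nothing is therefore read from these signs or medians.

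The sign of the population difference was also read within pairs of neighbouring library numbers, each of a G0M+ and a G0M- library under the same treatment. Cma1 and Prss34 were higher in the G0M+ library in 5 of 6 pairs and at 0 on both sides in the sixth, which held IMDP3. Mcpt8, Gzmb and Cpa3 were higher in the G0M+ library in 5 of 6 pairs. The exceptions were IMDP3 with IMSP3 for Mcpt8 and IMDP2 with IMSP2 for Gzmb and Cpa3. Neighbouring numbers are taken from the sample descriptions, and what they stand for is not stated there. Libraries of a pair deviated together from their group means over all genes, with correlations of 0.512, 0.519 and 0.495 in the vehicle and 0.429, 0.655 and 0.457 in the imatinib pairs. A fit with these pairs as a block keeps the differences of the 5 proteases by construction, since each pair holds both populations. It changed calls of other genes. It called 4.17% of all genes higher and 5.56% lower in DP than in SP, and 8.22% higher and 35.9% lower in IMDP than in IMSP, and its counts of calls are given beside those without the block.

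Imatinib-treated G0M+ libraries had lower fitted levels than vehicle-treated ones, with overlap for every gene. The fitted log2 difference in IMDP against DP was -3.77 (SE 1.51) for Cma1, -3.19 (SE 1.19) for Gzmb, -2.21 (SE 1.59) for Prss34, -1.66 (SE 0.78) for Mcpt8 and -1.25 (SE 1.01) for Cpa3. With 1 library left out it ran from -6.14 to -2.14 for Cma1 and from -4.25 to -1.89 for Gzmb. The range was -3.86 to 0.38 for Prss34, -2.35 to -0.85 for Mcpt8 and -2.32 to -0.17 for Cpa3. In 0 of the 8 genes did all IMDP libraries lie below all DP libraries, beside 19% of all genes tested, and in 0 of 8 did they lie above, beside 4.58%. IMDP1 decided that count: with it left out 3 genes, Cma1, Mcpt8 and Gzmb, lay wholly below DP. Fewer libraries separate more easily, and the share of all genes was not taken for that smaller set. Without IMDP3 the difference of Prss34 turned to 0.38. The rarer genes went the other way in the means, with Mcpt4 at 4.40 ± 7.63 RPKM in IMDP against 0.88 ± 1.42 RPKM in DP and Tpsb2 at 3.71 ± 6.42 against 2.71 ± 4.69 RPKM (SD, n = 3), each resting on IMDP1 and DP1.

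Among G0M- libraries the proteases were low with or without imatinib. The IMSP against SP log2 difference was 0.16 (SE 0.78) for Mcpt8, 0.18 (SE 1.01) for Cpa3, -0.42 (SE 1.59) for Prss34 and -2.37 (SE 1.19) for Gzmb, and Cma1 was 0 in both groups. In 0 of 8 genes did the groups separate in either direction, beside 11.1% of all genes that were higher and 2.72% that were lower in IMSP without overlap. Without IMSP1, Gzmb lay lower in IMSP than in every SP library. The signs for Mcpt8 and Cpa3 turned with the library left out.

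**Figure D3:**
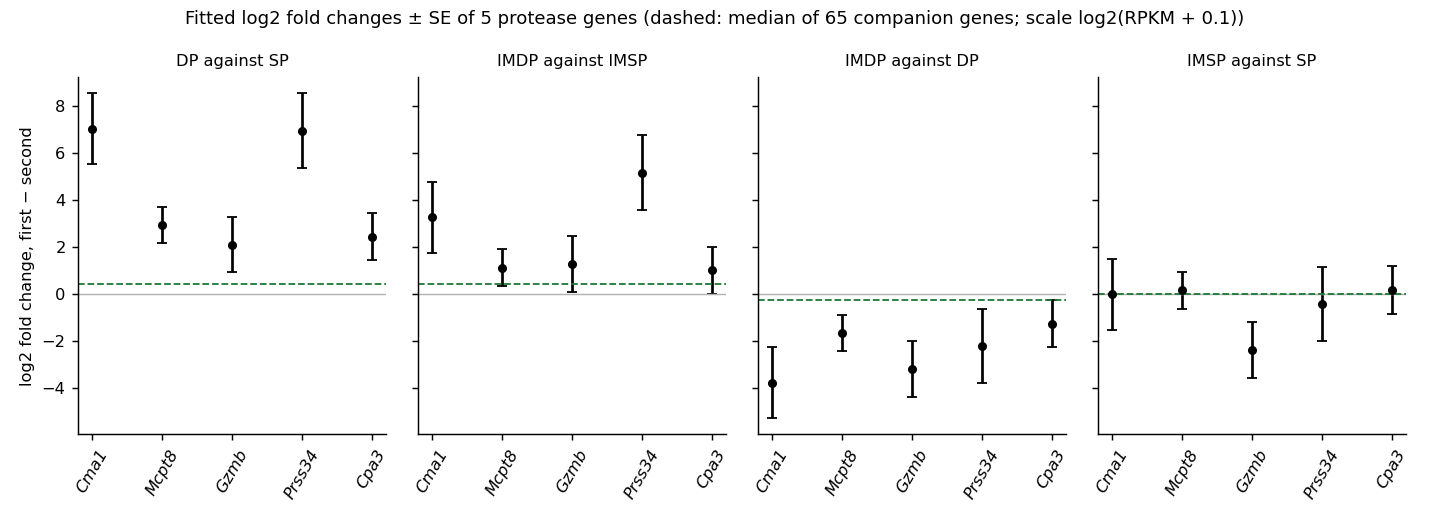
Fitted log2 differences of the 5 protease genes in the fit, with SE bars, in the 4 comparisons; the scale is log2(RPKM + 0.1) and the dashed line is the median of 65 companion genes (0.43, 0.42, -0.25 and -0.01). All 5 points lie above 0 in both population comparisons and below 0 in IMDP against DP.

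The 8 genes did not vary as a unit across the 12 libraries. On the log2(RPKM + 0.1) scale, pairwise Pearson r ran from 0.43 for Gzmb with Prss34 to 0.97 for Mcpt4 with Tpsb2, of which the latter rests on the 2 libraries with both. Cma1 with Prss34 reached 0.90, Mcpt8 with Prss34 0.89 and Gzmb with Mcpt8 0.56. These values describe 12 libraries that share their groups and their depth, and no test was made. Neighbouring genes could differ in pattern: Ctsg, the neutrophil protease cathepsin G, lies 14.6 kb from Mcpt8 and held 256, 19.8 and 44.6 RPKM in DP1 to DP3 and 142, 457 and 71.7 RPKM in SP1 to SP3. Its r with the mean profile of the 5 genes was -0.30. On the other side of Mcpt8, Mcpt4 lies 19.9 kb away. Of the 11 other genes of the chromosome 14 stretch, Ctsg and Mcpt1 exceeded 1 RPKM in any library, and Mcpt1, a chymase of mucosal mast cells, did so in IMDP1 alone (4.74 RPKM).

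Further granule proteases were described from a list of 24 genes, of which 17 were above 0 in some library and 5 entered the fit. None of the 5 passed the test in any of the 4 comparisons (limma, Benjamini-Hochberg adjusted over all genes) without the block. With the block of neighbouring libraries 4 of the 5 were called lower in both population contrasts. Of all genes, the block called 5.56% lower in DP against SP and 35.9% lower in IMDP against IMSP. Gzma, granzyme A, followed Cma1 among vehicle libraries, with 9.31, 20.5 and 1.23 RPKM in DP1 to DP3 and 0.94, 0 and 0.34 RPKM in SP1 to SP3. Its log2 difference was 4.15 (SE 1.37, adjusted p = 0.20 by limma). The 4 others, which are those called with the block, are proteases of neutrophil and monocyte precursors, Ctsg, Elane, Prtn3 and Prss57, and they were highest in SP2 and IMSP1. In DP against SP Elane differed by -1.93 (adjusted p = 0.54 by limma, and 0.028 with the block). Elane held 577 RPKM in SP2 and 339 RPKM in IMSP1, against 271, 5.97 and 41.3 RPKM in DP1 to DP3. DP1 thus lay above SP1 (160 RPKM) and SP3 (40.7 RPKM). Gzmk, Gzmf, Gzmg, Mcpt9, Cma2, Prss29 and Prss22 were at 0 in all libraries.

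The genes that load, activate and hold granule proteases were present in all groups. Srgn, which encodes the serglycin core protein, ranged from 28.8 RPKM in IMDP2 to 89.1 RPKM in DP1, and Ctsc, whose product dipeptidyl peptidase I activates the proteases, from 1.53 to 3.43 RPKM. Of 24 such genes 23 were tested. In DP against SP none was called without the block and 3 were called higher with it, beside 4.17% of all genes called higher with the block. In IMDP against IMSP 2 were called higher and 4 lower, beside 2.37% of all genes called higher and 23.3% called lower. With the block 5 were called higher and 6 lower, beside 8.22% and 35.9% of all genes. With the libraries scaled to the same median 3 were called higher and 0 lower, beside 6.19% and 9.43% of all genes. Ndst2, which sulfates the heparin chains of mast cells, was 4.04 ± 0.34 RPKM in IMDP and 2.99 ± 0.08 RPKM in IMSP (SD, n = 3; log2 difference 0.42, SE 0.14, adjusted p = 0.043 by limma), and Unc13d, a factor for granule release, was higher by 0.67 (SE 0.17, adjusted p = 0.016 by limma). The 4 lower calls did not hold under the median scaling, where the adjusted p by limma was 0.094 for Cst7, 0.065 for Cst3, 0.093 for Hexa and 0.22 for Rab27a. In the deposited scaling Cst7, a protease inhibitor, was at 3.57 ± 2.81 against 17.0 ± 7.85 RPKM (log2 difference -2.36, SE 0.80, adjusted p = 0.047 by limma) and Cst3, another, at 49.3 ± 4.08 against 89.6 ± 18.3 RPKM (-0.85, SE 0.18, adjusted p = 0.0074 by limma). Hexa, a hexosaminidase subunit, and Rab27a, a GTPase of granule docking, differed by -0.96 and -0.67 on the log2 scale (adjusted p = 0.020 and 0.0498 by limma).

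Among 30 genes of mast cell identity, 22 were tested and Lilrb4a, an inhibitory receptor of mast cells and myeloid cells, rose in both population contrasts. It held 58.6, 14.6 and 17.1 RPKM in DP1 to DP3, 1.68, 2.39 and 5.69 RPKM in SP1 to SP3, 24.1, 10.2 and 5.07 RPKM in IMDP1 to IMDP3 and 0.95, 1.23 and 2.42 RPKM in IMSP1 to IMSP3. The groups did not overlap in either contrast, with a log2 difference of 3.06 (SE 0.65, adjusted p = 0.027 by limma) in DP against SP and 2.84 (SE 0.65, adjusted p = 0.011 by limma) in IMDP against IMSP. The call in DP against SP was lost without DP1, DP3 or SP2. Lilrb4a has a close copy, Lilr4b, with which reads may be split. Among the imatinib libraries, Cyp11a1, a steroid-making enzyme, was higher in IMDP than in IMSP by 3.09 (SE 0.87, adjusted p = 0.025 by limma), Ltc4s, the leukotriene C4 synthase, by 1.05 (SE 0.33, adjusted p = 0.037 by limma) and Tal1, a transcription factor of blood progenitors, by 0.73 (SE 0.25, adjusted p = 0.047 by limma). None of the 22 was called lower in either contrast, and with the block 4 were called higher in DP against SP and 9 in IMDP against IMSP. Of all genes, 0.288% were called higher and 1.98% lower in DP against SP, and 2.37% and 23.3% in IMDP against IMSP. With the block these shares were 4.17% and 5.56%, and 8.22% and 35.9%.

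The IgE receptor chains and amine genes, named here after their values were seen, differed in pattern. Fcer1a, the IgE-binding chain, held 21.2 RPKM in DP1 and 22.2 RPKM in IMDP1, 4.43 RPKM in IMDP2 and at most 1.57 RPKM in the remaining libraries. Hdc, which makes histamine, held 49.9, 10.7 and 13.9 RPKM in DP1 to DP3 and from 1.80 to 13.8 RPKM elsewhere. In DP against SP, Fcer1a differed by 3.61 (SE 1.40, adjusted p = 0.29 by limma) and Hdc by 2.22 (SE 0.76, adjusted p = 0.22 by limma, and 0.014 with the block). Fcer1g, the signalling chain, was highest in IMSP3 (21.8 RPKM), Slc18a2, which loads amines into vesicles, in IMDP2 (51.5 RPKM), and Tph1, which acts in serotonin synthesis, in DP2 (6.95 RPKM). Mrgprb2 and Enpp3, receptor and surface genes of mature mast cells and basophils, were at 0 in all libraries, Mrgprb1 at most at 0.24 RPKM, and Mitf, a transcription factor of mast cells, between 0.30 and 0.96 RPKM.

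Among 19 genes of basophil identity, 15 were tested. In DP against SP, Il6 was called, with 12.6, 4.14 and 8.06 RPKM in DP1 to DP3 and 0, 0.10 and 1.37 RPKM in SP1 to SP3 (log2 difference 4.62, SE 1.08, adjusted p = 0.048 by limma). The Il6 call was lost without DP1, DP3 or SP2. Cd69, an activation marker, was the one companion gene called in IMDP against DP, with 13.5 ± 4.17 RPKM in IMDP and 62.1 ± 12.2 RPKM in DP (SD, n = 3; log2 difference -2.22, SE 0.24, adjusted p = 0.0086 by limma). That call was lost without IMDP3 and with only the 6 libraries of the contrast. In IMDP against IMSP, Aqp9, a water and glycerol channel, was higher by 1.56 (adjusted p = 0.024 by limma), and Cebpa and Cebpb, transcription factors of myeloid cells, were lower, by -1.84 (adjusted p = 0.0496 by limma) and -1.07 (adjusted p = 0.040 by limma). With the libraries scaled to the same median neither was called (adjusted p = 0.099 and 0.13 by limma). With the block 6 of the 15 were called higher and 1 lower in DP against SP, and 5 higher and 2 lower in IMDP against IMSP. Of all genes, the block called 4.17% higher and 5.56% lower in DP against SP, and 8.22% higher and 35.9% lower in IMDP against IMSP. Cd200r3, a receptor of basophils and mast cells, was too low to be tested and held 3.24 RPKM in DP1, 1.31 RPKM in IMDP1 and at most 0.87 RPKM elsewhere.

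Together the 4 lists held 97 companion genes, of which 65 were tested. In DP against SP 2 were called, both higher, where 0.288% of all genes were called higher and 1.98% lower. That count fell to 0 without DP1, DP3 or SP2, was 1 without SP1, IMDP1 or IMSP2, and was 4 without SP3. With the block of neighbouring libraries it was 18, of which 13 were higher, beside 4.17% of all genes called higher and 5.56% lower. In IMDP against IMSP 7 were called higher and 6 lower, where 2.37% of all genes were called higher and 23.3% lower. With the libraries scaled to the same median the calls were 8 higher and 0 lower, beside 6.19% and 9.43% of all genes. With the block 31 were called, 19 of them higher, beside 8.22% of all genes called higher and 35.9% lower. Leaving out IMSP1 left 2 calls, leaving out IMDP2 or IMSP3 left 4, and leaving out IMDP1 or SP1 left 7. In IMDP against DP 1 was called lower, where 0.338% of all genes were called lower and 0.0298% higher, and 0 without IMDP3. In IMSP against SP limma called 0 of 65, with 7 at an unadjusted p under 0.05 and 0 by limma-voom on the recovered reads, beside 0% of all genes. A test of whether the population difference changed with imatinib called 0 of the 65 genes, with 3 at an unadjusted p under 0.05.

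By likeness over the 12 libraries to the mean centred log2 profile of the 5 genes in the fit, the nearest genes were Furin (r = 0.94), a proprotein convertase, Txk (0.94), a kinase, Rnf128 (0.93), a ubiquitin ligase, Lilrb4a (0.91), its copy Lilr4b (0.91), Grm6 (0.90), Cdh1 (0.90), which encodes E-cadherin, and Zbtb1 (0.89). Furin held 30.4, 15.1 and 15.6 RPKM in DP1 to DP3, 5.69, 4.28 and 5.81 RPKM in SP1 to SP3, 13.7, 10.4 and 5.20 RPKM in IMDP1 to IMDP3 and 3.85, 4.12 and 4.07 RPKM in IMSP1 to IMSP3. It repeated the step from IMDP1 to IMDP3. For Cpa3 alone the nearest were Map3k6 (r = 0.88), Zmynd19 (0.83), Txk (0.83), Cstb (0.82) and Rnf128 (0.81), among which Cstb encodes an inhibitor of cysteine proteases. The 5 genes themselves had an r of 0.73 (Gzmb) to 0.97 (Cma1) with the profile they form. These genes were chosen for their likeness, so no test was made of them.

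**Figure D4:**
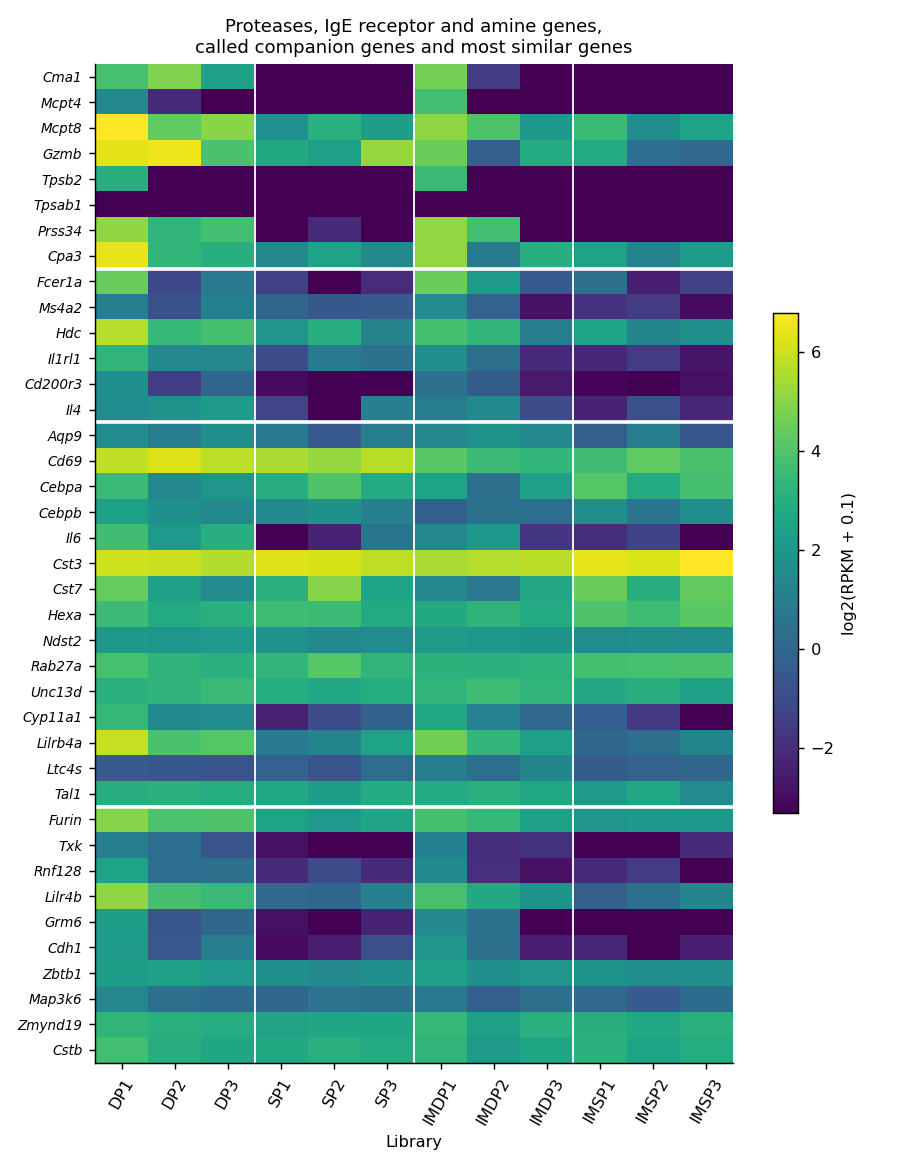
Levels as log2(RPKM + 0.1) in the 12 libraries, from dark (0 RPKM) to yellow. Blocks from top to bottom are the 8 proteases, IgE receptor, amine, receptor and cytokine genes, the companion genes called in any comparison, and the genes most alike; Cma1, Mcpt4, Tpsb2 and Prss34 are bright in DP1 and IMDP1 and at the dark end in IMDP3, and Fcer1a and Lilrb4a are brighter in DP1 and IMDP1 than in IMDP3.

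Markers of other cells moved with some of the libraries. Red cell genes differed in pattern. Hba-a1 (102 RPKM) and Hbb-bs (157 RPKM) were highest in IMDP1, against at most 21.8 and 20.2 RPKM elsewhere. Hbb-bt, the highest of the list on average, held 117 RPKM in IMDP1 and 175, 226 and 190 RPKM in DP1 to DP3. Klf1 was lowest in IMDP1, at 0.10 RPKM. The summed level of 10 erythroid genes was 541, 132 and 86.8 RPKM in IMDP1 to IMDP3. It was 264 to 307 RPKM in the DP libraries and 22.0 to 178 RPKM in the SP and IMSP libraries. Of 8 macrophage genes, as many as 7 were above 0 in each IMDP library and from 1 to 2 in each SP and IMSP library, with summed levels of 6.41 to 10.5 RPKM in IMDP, 1.77 to 11.5 RPKM in DP and 0.16 to 1.75 RPKM in SP and IMSP libraries. The macrophage sum was high also in IMDP3 (6.41 RPKM), which held no Cma1 or Prss34. Megakaryocyte genes summed to 128 RPKM in DP1, 117 RPKM in IMDP2 and 18.5 RPKM in IMDP1. The part of such cells in the protease levels was not tested.

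For neutrophil and monocyte precursors 6 genes were tested, and 0 were called in DP against SP without the block. Their median log2 difference was -1.41, and that of Csf1r alone was positive (0.63). Of the 15 listed genes of these cells Mpo was the highest, with 766, 37.8 and 139 RPKM in DP1 to DP3 and 508, 1389 and 241 RPKM in SP1 to SP3, while Retnlg was at 0 throughout. Cytotoxic lymphocyte genes other than Nkg7 were at or near 0: Prf1 reached at most 0.19 RPKM, Eomes 0.17 RPKM and Cd8a 0.16 RPKM, and Cd3e and Ncr1 exceeded 1 RPKM in IMDP1 alone (1.27 and 1.18 RPKM) and Klrb1c in IMDP2 alone. Nkg7 was read in all libraries, from 25.1 to 265 RPKM. Of the eosinophil genes Ear1 and Ear6 were at 0, Epx and Prg2 each held reads in 1 SP library only, and Siglecf was the highest (0.41 to 2.66 RPKM). Of the B cell genes Ms4a1 and Pax5 were at 0 and Cd79b the highest (1.27 to 4.00 RPKM).

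**Figure D5:**
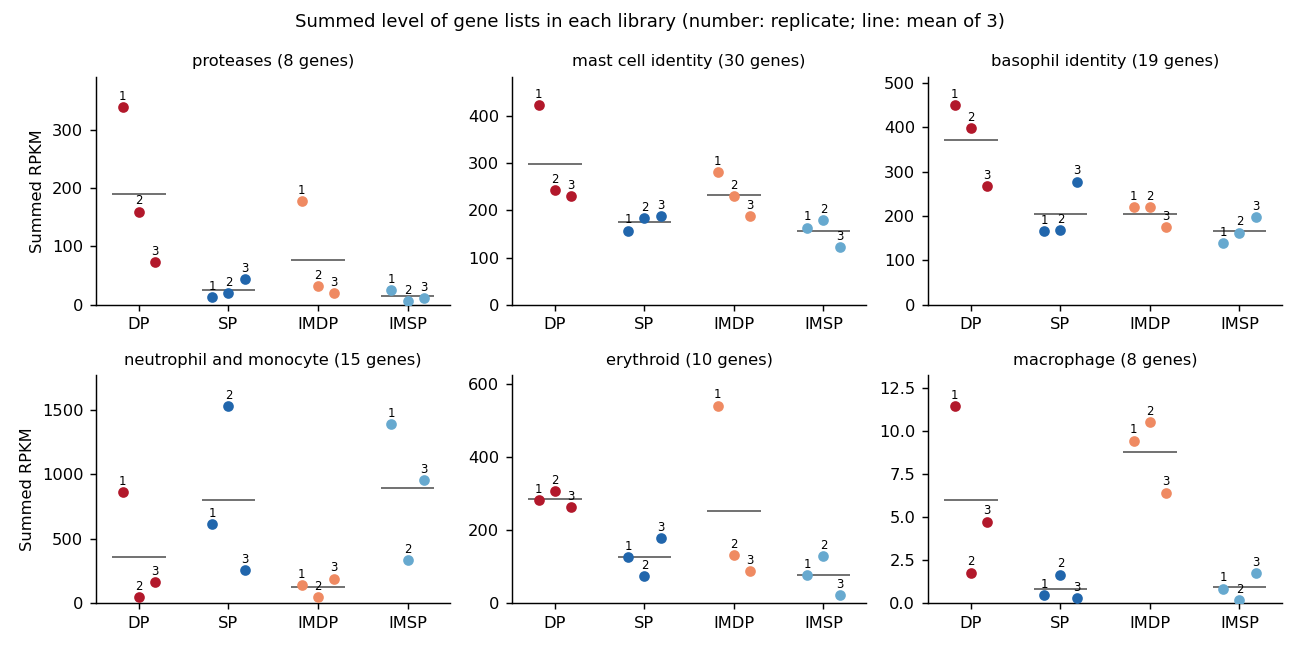
Summed RPKM of 6 gene lists in each library by group (linear axes from 0; numbers are replicates, lines are means of 3). The protease sum and the mast cell sum are highest in DP1 (339 and 424 RPKM), the erythroid sum in IMDP1 (541 RPKM), and the neutrophil and monocyte sum in SP2 (1532 RPKM).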

How the data were processed

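Libraries of 100 sorted cells, 3 per group, were sequenced. The authors mapped the reads to GRCm38 (mm10) and deposited expression as RPKM. CLC genomic workbench is named in the methods, HISAT2 and featureCounts in the reporting summary, and edgeR in the submitters' processing notes. Whether a further normalization is part of the deposited RPKM is not stated. The library kit does not mark strand. Totals behind the RPKM were 11.4 to 20.6 M reads per library. RPKM values stood on steps of whole reads for 99.983% of the features above 0 (within 0.01 reads), which gave the reads behind each value. Precision from reads covers counting error only, since PCR copies are not marked.

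Numbered copies were summed. The 10072 genes that reached 1 RPKM in 3 or more libraries were fitted in R 4.3.3 with limma 3.58.1 (trend) on log2(RPKM + 0.1) with 4 group means, and p-values were adjusted by Benjamini-Hochberg over all of them, threshold 0.05. This fold scale understates changes of low genes. The fit was tested on simulated data. The members and the gene lists were chosen with earlier results of these data known. Named were the 8 members, up to 4 called genes of each companion list and comparison with the largest difference, the highest marker and defining markers at 0 of other cell types, the 8 genes most like the members and 5 most like Cpa3, Kit, Ly6a, Cd27 and Mki67, and chromosomal neighbours; other genes were chosen after their values were seen. Same-numbered IMDP and IMSP libraries deviated together from their group means (correlation over genes 0.429, 0.655 and 0.457), those of DP and SP did not (-0.298 to -0.098). Pairs of neighbouring library numbers in the sample descriptions did so under both treatments (0.429 to 0.655), and a fit with these pairs as a block is given beside the calls it changes. Alternatives changed the pseudocount, filter, scaling, copies, libraries in the fit, block, test and library left out; leaving out DP1 and IMDP1 together was added after seeing the data. Promoters came from RefSeq and positions from GENCODE M21. Tables were made with pandas 2.3.3 and numpy 2.4.6 under Python 3.11.15, and plots with matplotlib 3.10.9.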

Additional observations from a re-analysis of the deposited data

How the results depend on the processing

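The fitted differences of the 5 proteases kept their sign in DP against SP under all alternatives run. Elsewhere the sign turned only with a library left out. For Cpa3 in IMDP against IMSP the range was -0.045 to 2.10, and -0.045 also without DP1 and IMDP1. For Prss34 in IMDP against DP it was -3.86 to 0.38. In IMSP against SP it was -0.33 to 0.63 for Mcpt8 (-0.15 without SP1) and -0.074 to 0.56 for Cpa3 (-0.0073 without SP3). With a pseudocount of 1 or 0.01 in place of 0.1, Cma1 in DP against SP moved to 3.84 or 10.4 and Prss34 to 4.09 or 9.40, since libraries at 0 enter these values.

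With 1 library left out, the genes with all DP libraries above SP numbered 4 to 6 of 8, those in IMDP against IMSP 0 to 3, those in IMDP against DP 0 to 3 and those in IMSP against SP 0 to 1, and without DP1 and IMDP1 the count in IMDP against DP was 3. The share of all genes was not taken for these smaller sets, in which groups separate more easily. Genes called over the whole table ranged from 125 to 264 in DP against SP (228 with all libraries), from 902 to 2962 in IMDP against IMSP (2581), from 0 to 189 in IMDP against DP (37), and companion genes called from 0 to 4 (2), from 2 to 16 (13) and from 0 to 1 (1). Without DP1 and IMDP1, 1 gene was called in IMDP against DP and 1 companion gene in DP against SP. The whole-table counts for IMDP against DP fell to 8 with limma-voom, 2 with median scaling and 0 with only the 6 libraries of the contrast, where the companion count was also 0. In IMDP against IMSP they were 1573 with median scaling and 1553 with only those 6 libraries, and 8 companion genes were called without a filter, 8 with median scaling and 7 with limma-voom. The companion count in DP against SP was 1 with a pseudocount of 0.01, without a filter, with the 6 libraries, with limma-voom and with copies kept apart. The cause of these shifts was not tested beyond the construction of each setting.

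The replicate block, pairing libraries by the number in the title, called 240, 2781 and 38 genes in the first 3 comparisons and 0 in IMSP against SP. Companion genes called were 1, 11, 1 and 0. The block cannot move the protease differences, since each number holds 1 library of every group. In IMDP against IMSP, the comparison where these numbers pair, it moved no count by over 1.5 times. Pairing by neighbouring library numbers, which gives the same pairs under imatinib, called 980 genes and 18 companion genes in DP against SP and 4446 and 31 in IMDP against IMSP. At the depth of the shallowest library 3 reads on Cma1 equal 0.242 RPKM. The floor of 3 reads was a choice, and lower levels could be listed, such as Mcpt4 at 0.13 RPKM from 2 reads in DP2.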
